A study of Mus musculus with 6 samples.

Results

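Slit2, Slit3, Robo1, Robo2, Ntn1, Ntn4, Neo1, Unc5b and Dcc, the Slit and netrin guidance genes and their receptors, were followed in mouse mammary cells of fetal and adult origin. These 9 genes were chosen by name, as ligands and receptors of the Slit-Robo and netrin systems, and were found on the arrays through the RefSeq accession of each probe. They were represented by 13 of the 55681 probes on an array and were 9 of the 20660 genes to which any probe could be assigned. The 6 arrays carried the RNA of fetal and adult basal mammary cells of C57Bl6J females, with 3 biological replicates of each population. The fetal cells were taken at embryonic day 18.5 (E18.5), digested briefly, and gated as EpCAM++CD49f+ with the CD31+, CD45+ and Ter119+ cells removed. The adult basal cells came from mice of 8 to 12 weeks, were digested overnight, and were gated as EpCAM+CD49f+ with the CD31+, CD45+, Ter119+ and BP-1+ cells removed. The labels give no transgene and no treatment for either population, and the number of animals behind each replicate is not given in the sources used here. The populations therefore differed in age, sort gate and digestion at once, and these cannot be told apart.

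Slits are secreted proteins that bind Robo receptors and were first known for repelling growing axons. Netrins are secreted relatives of laminins that bind Dcc, Neo1 (neogenin) and the Unc5 receptors, and attract or repel cells according to the receptor in use. In the mammary gland, the cap cells of the growing duct tip carry neogenin and the luminal layer makes netrin-1, and Slit2 and Slit3 acting through Robo1 hold the basal and luminal layers together and restrain side branching.

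Slit3 and Unc5b were the members with the clearest difference between the populations, and both were higher in adult basal cells, Slit3 32.2-fold and Unc5b 16.3-fold. Robo2 was the member with higher signal in fetal cells by more than 2-fold on both of its probes. Slit2 and Ntn4 stood higher on every adult than on any fetal array, while Robo1, Ntn1, Neo1 and Dcc differed by less than 2-fold in their means. A probe was called when its Holm-adjusted p in limma was at most 0.05 and its fold change at least 2, with the adjustment over all 20448 tested probes. Taking for each gene its brightest tested probe, 2 of the 9 members were called, both higher in adult basal cells, beside 11.1% of all tested probes. By direction, 5.92% of all tested probes were called with the fetal signal higher and 5.18% with the adult basal signal higher. With the less strict Benjamini-Hochberg adjustment at the same fold limit, 5 of the 9 passed, 1 higher in fetal cells (Robo2) and 4 higher in adult basal cells (Slit2, Slit3, Ntn4 and Unc5b), beside 30.0% of all tested probes. Of these 5, Ntn4 was well above background on no fetal array. The arrays of the populations did not overlap for 8 of the 9 members, and the same held for 69.0% of all tested probes. The median absolute log2 fold change was 1.47 over the 9 members and 0.55 over all tested probes.

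The stretches of promoter below are those of the 4 members that passed with Benjamini-Hochberg adjustment and were higher in adult basal cells, and of Robo2, which went the other way. They are shown because the members of the first set share letters that those of Robo2 lack. Each is the 250 bases before the annotated transcription start in RefSeq (GRCm38.p6), read 5′ to 3′ on the strand of the gene. Capitals mark the GC box GGGCGG on either strand and the TATA box TATAAA. On the plus strand the windows lie at chr11:35121206-35121455 for Slit3, chr5:47982905-47983154 for Slit2 and chr10:93640799-93641048 for Ntn4. On the minus strand they lie at chr10:60831582-60831831 for Unc5b and chr16:75447294-75447543 for the outermost of the 3 annotated Robo2 starts.
Slit3: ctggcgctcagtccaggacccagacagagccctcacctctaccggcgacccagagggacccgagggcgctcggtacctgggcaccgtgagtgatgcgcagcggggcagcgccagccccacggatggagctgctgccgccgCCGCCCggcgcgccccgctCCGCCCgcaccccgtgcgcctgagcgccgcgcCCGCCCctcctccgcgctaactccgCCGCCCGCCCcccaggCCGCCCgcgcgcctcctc
Slit2: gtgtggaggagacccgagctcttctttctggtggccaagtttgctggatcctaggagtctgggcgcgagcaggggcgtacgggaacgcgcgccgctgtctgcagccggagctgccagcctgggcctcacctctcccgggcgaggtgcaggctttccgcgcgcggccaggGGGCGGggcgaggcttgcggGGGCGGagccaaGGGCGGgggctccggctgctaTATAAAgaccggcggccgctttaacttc
Ntn4: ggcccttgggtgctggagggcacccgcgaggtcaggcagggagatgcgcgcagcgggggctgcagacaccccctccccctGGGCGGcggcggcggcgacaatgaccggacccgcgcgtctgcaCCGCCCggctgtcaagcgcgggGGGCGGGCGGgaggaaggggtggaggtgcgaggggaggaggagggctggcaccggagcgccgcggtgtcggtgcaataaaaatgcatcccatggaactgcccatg
Unc5b: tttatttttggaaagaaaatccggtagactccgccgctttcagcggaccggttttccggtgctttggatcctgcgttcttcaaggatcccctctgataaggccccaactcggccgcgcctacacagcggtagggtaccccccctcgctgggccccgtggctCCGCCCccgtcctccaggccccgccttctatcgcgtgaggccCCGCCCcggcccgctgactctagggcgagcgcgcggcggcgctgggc
Robo2: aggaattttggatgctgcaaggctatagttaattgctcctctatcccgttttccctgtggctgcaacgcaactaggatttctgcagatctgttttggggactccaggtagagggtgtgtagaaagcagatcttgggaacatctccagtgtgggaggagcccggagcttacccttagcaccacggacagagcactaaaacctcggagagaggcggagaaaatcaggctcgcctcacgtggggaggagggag

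The GC box is the recognition sequence of Sp1-type zinc finger factors. It occurred 6 times before Slit3, 4 times before Ntn4, 3 times before Slit2 and 2 times before Unc5b, with 1 overlapping pair each in Slit3 and Ntn4, and was in none of the 3 Robo2 windows. Over 32851 promoter windows of the same length, 32.7% held at least 1 GC box. Slit2 was the member with a TATA box, which began 28 bases before the start, and 12.4% of all windows held one. The 4 windows of the adult-higher members were also rich in CpG, with 35 in Slit3, 27 in Unc5b, 26 in Ntn4 and 25 in Slit2, as compared to 14, 4 and 8 in those of Robo2 and a median of 6 over all windows. The other windows did not divide this way. Neo1, with slightly higher fetal signal, held 1 GC box and 45 CpG, and Robo1 held no GC box and 11 CpG. The AP-1 letters TGANTCA and the TEAD letters GGAATG, present in 6.75% and 12.6% of all windows, were in none of the members' windows on either strand. The E-box letters CANNTG, present in 66.2% of all windows, were in each of the 3 Robo2 windows and occurred 3 times before Robo1. They were in none of the windows of Slit3, Slit2, Ntn4, Unc5b and Neo1. No promoter window was matched for Ntn1 and Dcc. A match of letters is a description of the sequence and not evidence that a factor was bound.

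The basal and luminal identity of the cells was read from marker genes. Over all tested probes, 11.1% were called and 30.0% passed with Benjamini-Hochberg adjustment. Of 8 basal markers, 6 were called, all higher in adult basal cells. Among them were Krt5 with a log2 fold change of -3.90, Acta2 with -4.07 and Cnn1 with -6.01. Krt5, Krt14 and Trp63, which define basal mammary cells, were well above background on all 6 arrays, so their RNA was measured in both populations. The 2 Trp63 probes disagreed, one with a log2 fold change of -0.08 and the other called at -3.07. Of 8 luminal markers, 3 were called, all higher in fetal cells, namely Elf5 (7.55), Kit and Cd24a (2.15). The 2 Prlr probes disagreed in sign, the brighter at -0.35 and not called, the other called at 1.85. With Benjamini-Hochberg adjustment 5 passed, the other 2 being Krt19 (-1.22) and Esr1, both higher in adult basal cells. The tested Esr1 probe was well above background on 1 of 3 fetal and on all 3 adult arrays. Further Esr1 probes, which lay under the low-signal limit in both populations and were not tested, did measure Esr1 RNA in every fetal and adult replicate. Their means were 4.74 and 4.17 in fetal and 5.80 and 5.75 in adult basal cells. Elf5 entered the test through its fetal signal alone. Epcam, whose product the gates were drawn on, was at 12.97 ± 0.10 in fetal and 11.09 ± 0.19 in adult basal cells (log2 signal, SD, n = 3), and Itga6, which encodes CD49f, differed by 0.01. The luminal keratins Krt8 and Krt18 differed by 0.44 and 0.58 and were not called. The basal keratin Krt14 differed by -1.20, with overlapping arrays, and was not called. Some layer markers of both kinds thus differed between the populations, and their part in the members' differences was not tested. In bulk RNA, fewer cells of a type and less RNA per cell cannot be told apart.

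**Figure D1:**
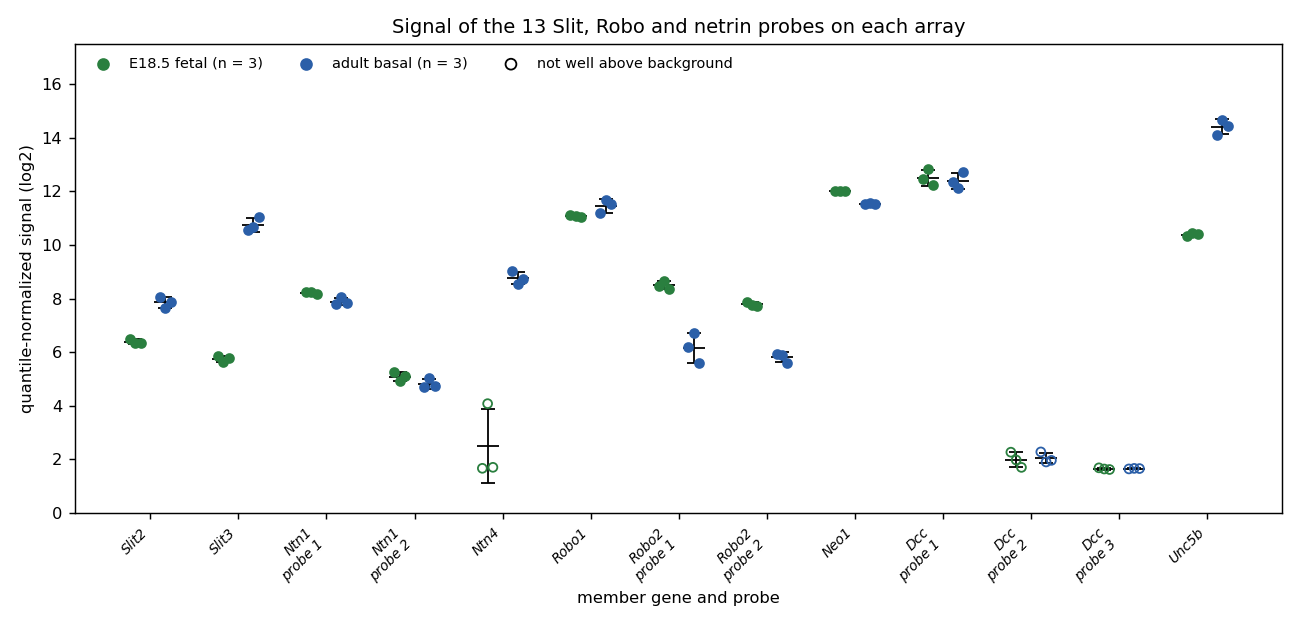
Quantile-normalized log2 signal (vertical axis) of all 13 member probes (horizontal axis), with 1 point per array, 3 fetal and 3 adult basal, and bars for the mean ± SD. The points of the populations lie far apart for Slit3, Ntn4 and Unc5b and interleave for the Dcc probes, and open points were not well above background on all 3 arrays of that population.

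Values below are quantile-normalized signals on the log2 scale, 1 per array, and fold changes are fetal over adult basal with the SE of the limma fit. Signals of different probes are not set against each other, because probes differ in how well they bind.

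Among the Slit ligands, Slit3 gave signals of 5.85, 5.63 and 5.77 in the fetal replicates and 10.55, 10.67 and 11.06 in the adult basal replicates. The fetal values were close together and the lowest adult value stood far above them. The means were 5.75 ± 0.11 and 10.76 ± 0.27 (SD, n = 3), and the log2 fold change was -5.01 (SE 0.15, Holm-adjusted p = 8.8e-05). Its probe stood well above background on every array, so the low fetal signal was a measured level. It entered the test through its adult signal, since its fetal mean lay under the low-signal limit of 5.95. Within the arrays of one slide the difference was -4.96, and within those of the other it was -4.97.

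Slit2 shares the Robo1 receptor with Slit3. It gave 6.49, 6.34 and 6.34 in the fetal replicates and 8.05, 7.66 and 7.86 in the adult basal replicates. The populations did not overlap, and each array measured the probe well above background. The difference was in the direction of that of Slit3, with a log2 fold change of -1.47 (SE 0.13, 95% interval -1.77 to -1.17). It did not pass in limma with Holm adjustment (adjusted p = 0.125) and passed with that of Benjamini-Hochberg (adjusted p = 5.0e-05), and it was -1.47 and -1.32 within the slides.

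Among the netrins, Ntn4, a netrin of basement membranes that binds laminin directly, was well above background on none of the fetal arrays. Its fetal signals were 1.67, 4.08 and 1.70, and its adult basal signals were 9.02, 8.55 and 8.72. One fetal array, that of replicate 2, thus stood apart from the others, although all 3 lay far below the adult values. Taking the dimmest signal that counted as well above background, or that of the probe itself where higher, as the fetal level of each array, Ntn4 was at least 29.3-fold higher in adult basal cells on this scale. The size depended on how low signals were treated, with a fitted log2 fold change of -2.81 after normexp background correction and -4.29 with 16 added before log2. The probe entered the test through its adult signal alone. The fitted log2 fold change was -6.28 (SE 0.61), with a Holm-adjusted p of 0.253 and a Benjamini-Hochberg-adjusted p of 8.6e-05. That fit rests on fetal values that were not well above background, so its size is not that of a measured level. Without fetal replicate 2 the Holm-adjusted p was 1.7e-04 with a log2 fold change of -7.08, but the fetal values then left lay below the dimmest well-measured signal of their arrays (3.39 and 4.22), so their tight spread is not that of a measured level. Over all alternatives the adjusted p ran from 8.6e-05 to 1.

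Ntn1, the netrin known from the luminal layer, gave 8.25, 8.25 and 8.17 in the fetal replicates and 7.79, 8.04 and 7.82 in the adult basal replicates. The populations did not overlap, but the difference was small, with a log2 fold change of 0.34 (SE 0.11, 95% interval 0.09 to 0.60, Holm-adjusted p = 1). It was 0.45 within one slide and 0.17 within the other. A further Ntn1 probe was at 5.09 ± 0.17 in fetal and 4.81 ± 0.19 in adult basal cells (SD, n = 3). Its arrays overlapped, and it lay under the low-signal limit in both populations and was not tested.

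Among the receptors, Unc5b, which mediates repulsion by netrins and acts as a dependence receptor, gave 10.32, 10.43 and 10.41 in the fetal replicates and 14.10, 14.68 and 14.46 in the adult basal replicates. The populations were far apart, and Unc5b passed the low-signal limit in both. The means were 10.39 ± 0.06 and 14.41 ± 0.29 (SD, n = 3), and the log2 fold change was -4.03 (SE 0.16, Holm-adjusted p = 4.8e-04). The difference was -3.96 and -4.26 within the slides.

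Robo2, a Slit receptor, had 2 probes, and both were higher on every fetal array. The brighter gave 8.46, 8.66 and 8.37 in the fetal replicates and 6.19, 6.71 and 5.60 in the adult basal replicates, for a log2 fold change of 2.33 (SE 0.26, Holm-adjusted p = 0.65). Its adult values were spread over more than 1 log2 unit, with an SD of 0.56 as compared to 0.15 in fetal cells. The dimmer gave 7.87, 7.76 and 7.73 in the fetal replicates and 5.93, 5.90 and 5.60 in the adult basal replicates, with SDs of 0.07 and 0.18. The replicates of this probe were tighter, and it was called with a log2 fold change of 1.98 (SE 0.12, Holm-adjusted p = 0.0133). It entered the test through its fetal signal, since its adult mean of 5.81 lay under the low-signal limit. The call was lost in 7 of 16 alternatives, among them that without the low-signal filter (adjusted p = 0.0977). Without single arrays its adjusted p was 0.0876 without adult basal replicate 1, and 0.232, 0.211 and 0.165 without fetal replicates 1, 2 and 3. The adjusted p was 0.0902 with the slide as a block and 0.0865 with the replicate block. Within the slides the differences were 2.56 and 1.80 for the brighter probe and 2.10 and 1.84 for the dimmer.

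Robo1, the receptor with which mammary Slit signals are best known, gave 11.12, 11.09 and 11.04 in the fetal replicates and 11.18, 11.70 and 11.52 in the adult basal replicates. The lowest adult array lay just above the highest fetal one. The log2 fold change was -0.38 (SE 0.14), with a 95% interval from -0.72 to -0.04 and a Benjamini-Hochberg-adjusted p of 0.0535 (Holm 1). Thus the interval ended short of a 2-fold difference for Robo1, whereas that of the brighter Robo2 probe ran from 3.27-fold to 7.70-fold higher in fetal cells.

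Neo1, the netrin receptor of cap cells, had the tightest replicates of all tested member probes, with 12.02, 12.00 and 12.01 in the fetal replicates and 11.51, 11.55 and 11.54 in the adult basal replicates. The populations were cleanly apart and yet differed by only 1.39-fold, with a log2 fold change of 0.48 (SE 0.09, 95% interval 0.27 to 0.69). The Benjamini-Hochberg-adjusted p was 0.00248 and the Holm-adjusted p was 1, and the fold limit was not met. The differences within the slides were 0.49 and 0.46.

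Dcc, the receptor through which netrin attracts axons, was the member whose arrays overlapped. Its brightest probe gave 12.46, 12.82 and 12.22 in the fetal replicates and 12.34, 12.14 and 12.72 in the adult basal replicates, a log2 fold change of 0.10 (SE 0.20, 95% interval -0.37 to 0.57). Its sign differed between the slides, at -0.07 and 0.37. The other 2 Dcc probes stood well above background on none of the 6 arrays, at means of 1.98 and 2.05, and of 1.65 and 1.65, in fetal and adult basal cells. The 3 probes thus disagreed on whether Dcc RNA was present, and which transcripts they bind is not given in the sources used here.

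**Figure D2:**
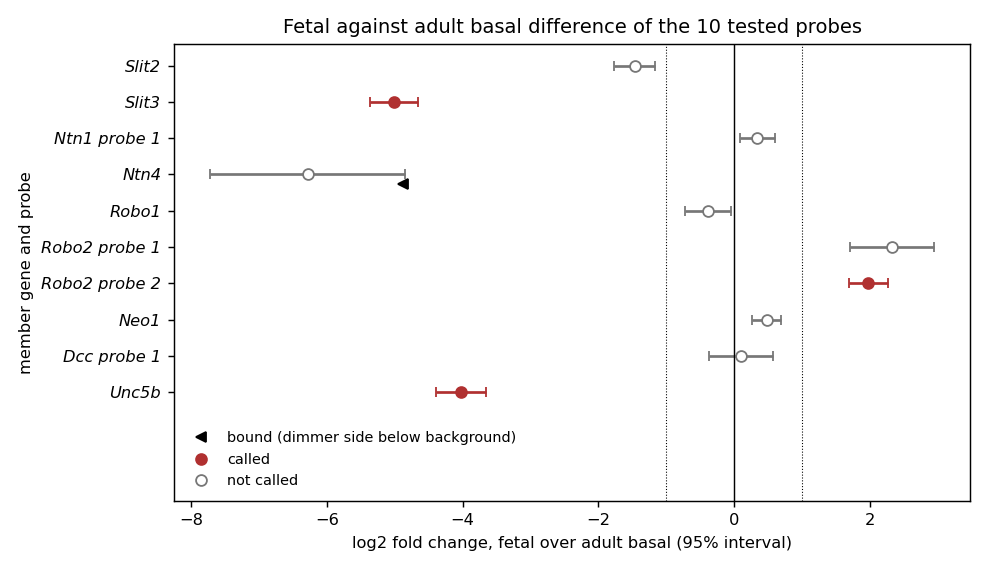
Log2 fold change, fetal over adult basal (horizontal axis), of the 10 tested member probes (vertical axis), with 95% intervals from limma, dotted lines at 2-fold, filled points for called probes and an arrowhead for the Ntn4 bound. Slit3 at -5.01 and Unc5b at -4.03 lie far on the adult side, Robo2 lies on the fetal side with both probes, and the intervals of Robo1, Ntn1, Neo1 and Dcc stay inside the lines.

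By probe, 10 of the 13 were tested and 10 were well above background on all 6 arrays. Of these, 3 were called, 2 higher in adult basal cells (Slit3 and Unc5b) and 1 higher in fetal cells (Robo2), beside the 11.1% of all tested probes. The Robo2 call was the one that did not hold in all alternatives. A total of 6 genes had a single probe, so for Slit2, Slit3, Robo1, Ntn4, Neo1 and Unc5b no other probe was there to compare. The difference of Slit3 kept its direction and its call in each of the 18 alternatives, between -5.14 and -4.04, and that of Unc5b did so in each of 18, between -4.19 and -3.89.

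The profiles most like those of the called ligand and the called receptor were sought among 19771 probes well above background on all 6 arrays, by the Euclidean distance of the centred log2 signals over the 6 arrays. Nearest to Slit3 were Kif5c, a kinesin motor, at a distance of 0.19 log2 units (log2 fold change -4.88), Procr, the endothelial protein C receptor and a surface protein used to enrich mammary stem cells, at 0.29 (-4.85), and Arhgap29 at 0.35 (-4.79). Nearest to Unc5b were Rab11fip5, which takes part in endosome recycling, at 0.25 (-3.93), Tlcd4 at 0.33 (-4.24) and Ero1b, an oxidase of the endoplasmic reticulum, at 0.33 (-4.04). On 6 arrays of 2 populations, any probe with a similar difference and tight replicates comes out near, and nothing is drawn from the likeness about shared control.

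Beyond the 9 members, 61 other genes of these pathways were listed, of which 60 had a probe and 54 were tested. Of the 54, 4 were called, 2 with higher signal in fetal and 2 with higher signal in adult basal cells, and 18 passed with Benjamini-Hochberg adjustment, 9 in each direction. The share called was 7.41%, beside 11.1% of all tested probes, and the 18 stand beside 30.0% of all tested probes, so neither count stood out from the background. Their median log2 fold change was -0.06, beside -0.03 over all tested probes, and their median absolute log2 fold change was 0.60, beside 0.55.

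Of 6 tested ligands, 1 was called, beside 11.1% of all tested probes. Ntng1 (netrin-G1), a membrane-anchored netrin that does not bind Dcc, gave 4.60, 5.15 and 5.45 in the fetal replicates and 9.58, 9.73 and 9.52 in the adult basal replicates. The populations were far apart, with a log2 fold change of -4.55 (SE 0.21, Holm-adjusted p = 0.0017), and the probe entered the test through its adult signal, its fetal mean of 5.06 being under the low-signal limit. A second, dimmer Ntng1 probe was well above background on no fetal array and on 2 adult arrays, and was not tested. None of 8 other receptors was called. With Benjamini-Hochberg adjustment 3 passed, 2 higher in fetal and 1 higher in adult basal cells, beside 30.0% of all tested probes. They are named here after their values were seen. Unc5a, a relative of Unc5b, was at 7.01 ± 0.20 in fetal and 5.79 ± 0.37 in adult basal cells (SD, n = 3), with a log2 fold change of 1.22 opposite in direction to that of Unc5b, and entered the test through its fetal signal. Dscaml1, a relative of the netrin receptor Dscam, had a log2 fold change of 1.00 on its tested probe. The third, higher in adult basal cells, was Robo4, the Robo of endothelial cells, with 6.68 ± 0.61 in fetal and 8.25 ± 0.40 in adult basal cells (SD, n = 3; log2 fold change -1.57).

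None of 8 matrix and ligand-binding partners was called. The 4 that passed with Benjamini-Hochberg adjustment were higher in adult basal cells, beside 30.0% of all tested probes that passed in either direction. Of 18 cytoplasmic effectors, 8 passed with Benjamini-Hochberg adjustment, 5 higher in fetal and 3 higher in adult basal cells, beside 30.0% of all tested probes. With Holm adjustment 3 were called. Dock1, an activator of Rac, was at 12.68 ± 0.01 in fetal and 10.77 ± 0.08 in adult basal cells (log2 fold change 1.91, SE 0.09, Holm-adjusted p = 0.0027). Enah, an actin regulator that binds Robo, had a log2 fold change of 1.95 (SE 0.15, Holm-adjusted p = 0.044) on its brighter probe and 1.08 on its dimmer, which was not called. Mycbp2, a ubiquitin ligase of axon growth, was at 9.84 ± 0.05 in fetal and 11.57 ± 0.03 in adult basal cells (log2 fold change -1.73, SE 0.09, Holm-adjusted p = 0.0043). The call of Ntng1 held in each of 18 alternatives. That of Dock1 was lost without fetal replicate 1, 2 or 3 (adjusted p = 0.0682, 0.0653 and 0.0546) and with the replicate block (0.0819). That of Mycbp2 was lost with the replicate block (0.132), without fetal replicate 1, 2 or 3 (0.0809, 0.102 and 0.0875) and without adult basal replicate 3 (0.0522), and that of Enah in 11 of 18. None of 5 partners in the death signal of dependence receptors, the class to which Unc5b belongs, was called, and 1 passed with Benjamini-Hochberg adjustment, higher in fetal cells.

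**Figure D3:**
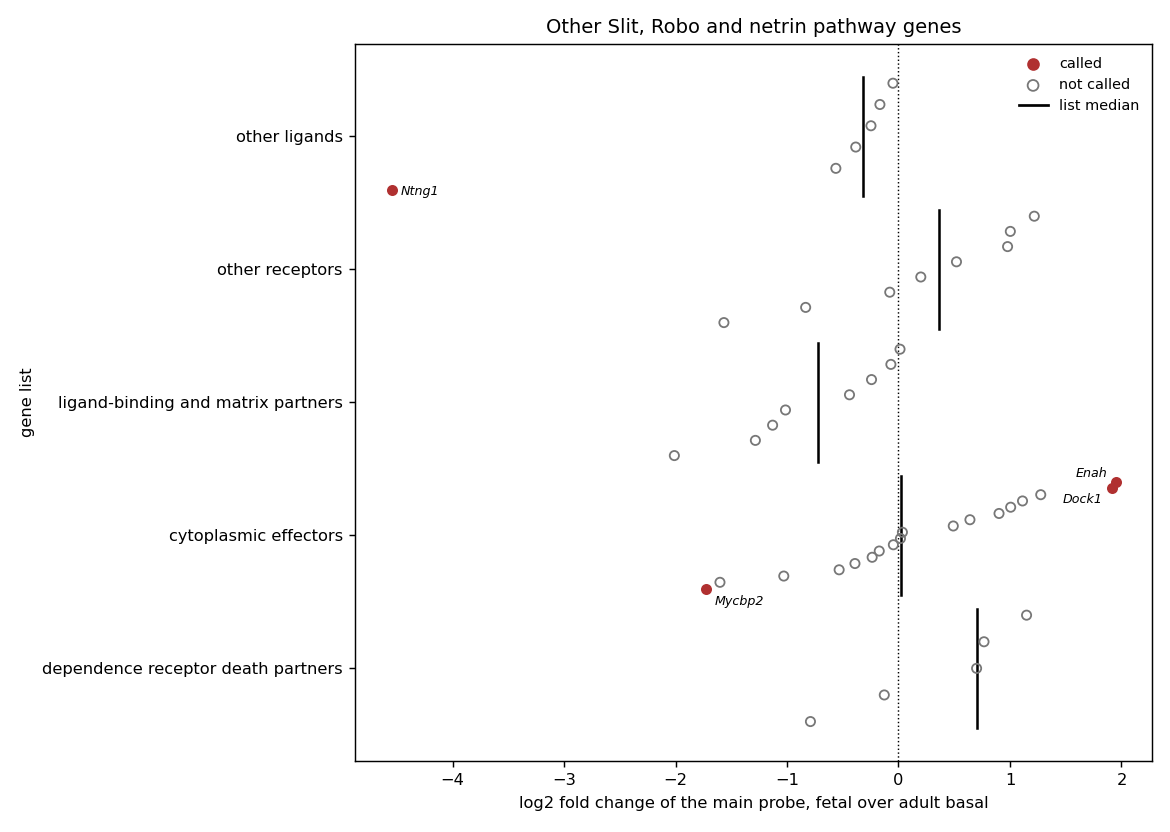
Log2 fold change, fetal over adult basal (horizontal axis), of the main probe of other pathway genes, grouped by 5 lists (vertical axis), with filled, named points for the 4 called genes and a bar for the median of each list. Ntng1 stands alone at -4.55, and Enah at 1.95 and Dock1 at 1.91 are the called genes on the fetal side.

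Markers of cell types that the sort was meant to remove, or that share these genes, were read from the same arrays, since Slits, Unc5b, Ntn4 and Robo4 are also made in vessels and stroma. None of 7 tested endothelial markers was called, but 5 passed with Benjamini-Hochberg adjustment, all higher in adult basal cells. For these and the marker counts that follow, the shares of all tested probes were 11.1% called and 30.0% passing with Benjamini-Hochberg adjustment. Among the 5 were Cdh5 (log2 fold change -2.70) and Esam, which was well above background on 1 of 3 fetal and on all 3 adult arrays. Of the 5, Cdh5, Esam and Emcn entered the test through their adult signal alone. Pecam1, which encodes the sorted antigen CD31, differed by -0.14, and Tek was well above background on all 3 adult and no fetal array and was not tested. The summed linear signal of the endothelial list was 12388, 10918 and 12772 in the fetal replicates. In the adult basal replicates it was 13358, 14232 and 11926. Most of it came from the brighter Kdr probe, which differed by -0.04. The dimmer Kdr probe, not in the sum, differed by -0.66 with overlapping arrays. Of 7 tested fibroblast markers, 2 were called, both higher in adult basal cells, namely Pdgfrb (-4.34) and Dcn (-3.78). Pdgfrb entered the test through its adult signal alone. With Benjamini-Hochberg adjustment 3 passed, the other being Lum (-1.05), also higher in adult basal cells. The rest differed by less, Col1a2 by -0.90, Col3a1 by -0.89, Pdgfra by -0.37 and Col1a1 by -0.01. Dpt was well above background on all 3 adult and no fetal array. The summed signal of the fibroblast list was 5460, 5740 and 7056 in the fetal replicates and 16064, 18540 and 26641 in the adult basal replicates. Dcn was the brightest, its mean log2 signals standing for linear signals of 779 in fetal and 10676 in adult basal cells. The highest adult Slit3 value was on the array with the highest fibroblast sum, that of replicate 3. Unc5b was highest on replicate 2, and Slit2 and Ntn4 on replicate 1. With 3 adult arrays, nothing is drawn from which was highest. The adult Slit3 values, from 10.55 to 11.06, also differed little beside their distance from the fetal ones.

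None of 7 leukocyte markers was called, and 2 passed with Benjamini-Hochberg adjustment, both higher in adult basal cells, namely Cd52, which was well above background on 2 of 3 fetal and on all 3 adult arrays, and Tyrobp (log2 fold change -2.80). Both entered the test through their adult signal, and both were highest on adult basal replicate 3, at 9.80 and 9.64. The leukocyte sum was 16219, 12459 and 14373 in the fetal replicates and 14310, 15716 and 17246 in the adult basal replicates, with Csf1r the brightest. Like the endothelial sum, it came mostly from bright probes that differed little, here those of Csf1r (-0.06) and Cd3e (-0.05). These sums thus do not show how the dimmer markers moved. Dimmer Csf1r probes, not in the sum, differed by -0.25 and -0.66 and were not called. None of 6 tested glial and neuronal markers was called, and 1, S100b, passed with Benjamini-Hochberg adjustment, higher in fetal cells. S100b entered the test through its fetal signal alone. It was well above background on all 3 fetal arrays and on 1 of 3 adult arrays, so no fold is given. The sum of that list was 13552, 14190 and 17005 in the fetal replicates and 17291, 12432 and 14203 in the adult basal replicates, most of it from Sox10, which differed by 0.17. The part of endothelial cells, fibroblasts and leukocytes in the higher adult signals of Slit3, Slit2, Ntn4, Unc5b and Ntng1 was not tested. The part of glial cells in the higher fetal signal of Robo2 was not tested.

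**Figure D4:**
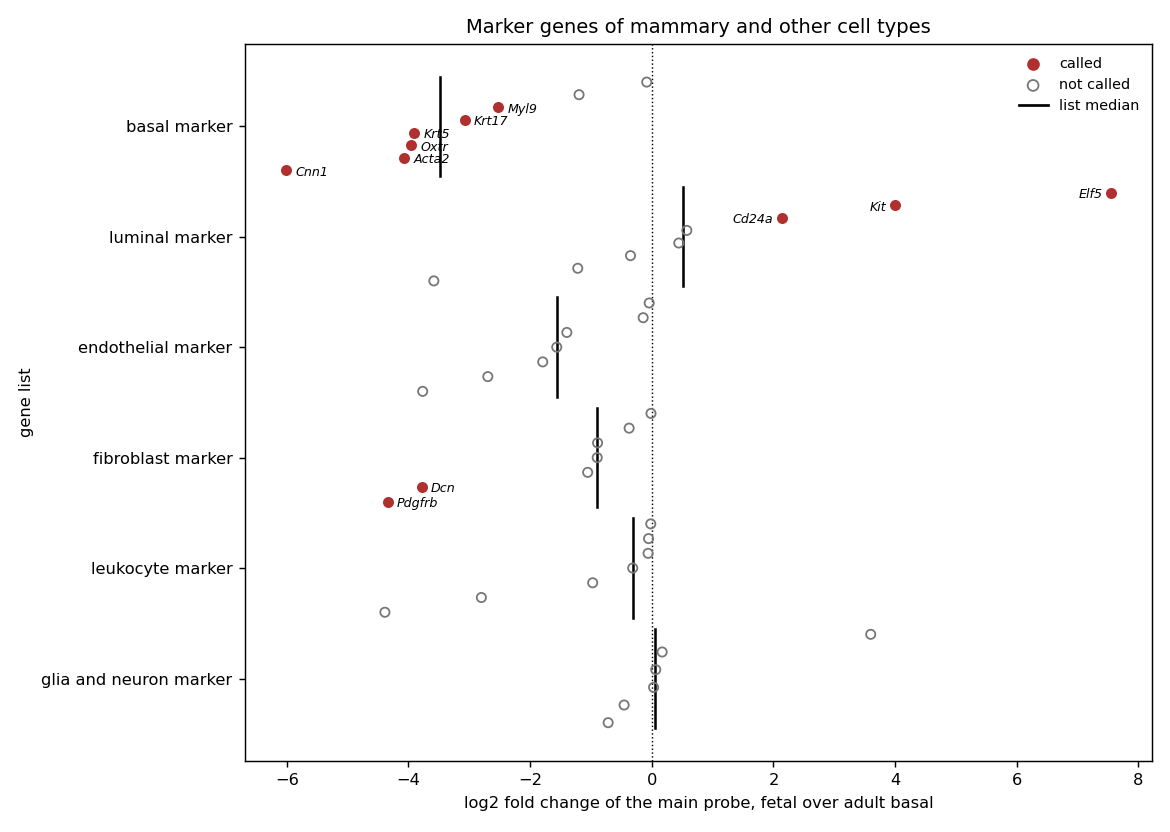
Log2 fold change, fetal over adult basal (horizontal axis), of the main probe of each tested marker gene, grouped by list (vertical axis), with filled, named points for called genes and a bar for the median of each list. Basal markers down to Cnn1 at -6.01 and the fibroblast markers Pdgfrb at -4.34 and Dcn at -3.78 lie on the adult side, and Elf5 at 7.55 lies farthest on the fetal side.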

How the data were processed

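One-color arrays (Agilent SurePrint G3 Mouse GE) were hybridized with RNA from 3 fetal and 3 adult basal replicates, 1 array each. The methods name a whole-transcript exon kit for labelling, and the labels a T7-primed low input kit. The authors deposited the spot intensity of each scan, background-subtracted by Feature Extraction 11.0.1.1 and not normalized between arrays. They also deposited a table of quantile normalized log2 values, used as an alternative, in which each column correlated with its own scan at between 0.971 and 0.996.

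Outlier spots (104 to 326 an array) and controls were left out, log2 of the processed signal was averaged over the spots of a probe, and arrays were quantile normalized. The files hold no gene symbols, so accessions were matched without versions to RefSeq (GRCm38.p6), naming 27235 probes of 20660 genes. The array design names mm9, and promoter coordinates are those of GRCm38.p6 alone. Probes in the lowest of 3 k-means clusters (below 5.95) in both populations were removed, leaving 20448. Populations were compared with limma 3.58.1 in R 4.3.3 (lmFit, eBayes), with Holm adjustment, a threshold of 0.05 and a limit of 2-fold. Tables and plots were made in Python 3.11.15 with pandas 2.3.3, numpy 2.4.6 and matplotlib 3.10.9. On simulated data with the 20448 probes of this comparison, Holm adjustment recovered 53 of 100 probes changed by 2 log2 units and 93 of 100 changed by 4 log2 units, with 0 false calls.

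The share of probes well above background ran from 76.4% to 83.3%, and none was saturated. Depth has no meaning for arrays, and their number limits the precision. A probe that was well above background on none of the arrays of a population is given a bound where a fold is stated, namely the bright mean against the mean of, per array, the higher of the dimmest well-measured signal and its own. Slide 1 held adult basal replicates 1 and 3 and fetal replicate 1, and slide 2 held the others. Each slide was its own scan.

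The members, the lists and the tests were chosen with earlier results of these data known. The values of 1 further pathway list are not reported here, though its genes are in the counts of all other pathway genes. Named were all 9 members with every probe, called genes of each pathway list, markers by count with examples, the sort antigens and the 3 profiles nearest to Slit3 and Unc5b. The rule allowed 3 examples a marker list, and the further markers, Robo4, Unc5a and Dscaml1 were added after their values were seen. Alternatives were scaling to the 75th percentile, the deposited values, normexp (offset 50, on the median spot intensity), 16 added before log2, no low-signal filter, a well-above-background filter, all probes, Benjamini-Hochberg adjustment, trend and robust eBayes, averaging of a gene's probes, the slide or replicate number as a block, and each array left out.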

Additional observations from a re-analysis of the deposited data

How the results depend on the processing

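The calls of Slit3 and Unc5b held in each of 18 alternatives, and each member apart from Dcc kept the sign of its main probe in all that were run. The Dcc difference, not called, ran from -0.06 to 0.26. With Benjamini-Hochberg adjustment 5 members were called in place of 2, 18 other pathway genes in place of 4, and 6133 of all tested probes in place of 2270. Without the low-signal filter 1182 of all probes were called. The replicate numbers were not taken to pair the samples. Same-number correlations between the populations were -0.03, 0.09 and 0.05, and different-number ones ran from -0.13 to 0.12. Correlations over so few arrays cannot exclude a shared preparation. With the replicate block 2 members, 1 other pathway gene and 1302 of all probes were called. Leaving out 1 array in turn gave 948 to 1949 of all probes, 2 to 3 members and 1 to 4 other pathway genes. The count of other pathway genes was 1 without each of the fetal replicates and 2 without adult basal replicate 3. The lowest count of all probes, 948, was without fetal replicate 1, and 974 and 1055 were called without fetal replicates 2 and 3. Without adult basal replicates 1, 2 and 3 the counts were 1469, 1949 and 1327. The third member, called without fetal replicate 2, with normexp and with 16 added before log2, was Ntn4, whose log2 fold change fell in size to -2.81 with normexp and -4.29 with the addition. The share of calls that were higher in fetal cells was between 51.1% and 55.0% in all settings. The fibroblast marker Dcn lost its call without fetal replicate 1 (adjusted p = 0.0527). Among the other markers, Krt5 lost its call in 2 of 18 alternatives, at an adjusted p of 0.0523 when adult basal replicate 1 was left out and of 0.0577 when fetal replicate 1 was, and Cd24a lost its call in 7 of 18, without a change of sign. Why the counts moved was not tested. Differences of probes near background depend on how low signals are treated, which limits the size given for Ntn4.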
